A study of Mus musculus with 9 samples.

Results

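The genes described here are Parp9 and Dtx3l, whose products form a complex that modifies other proteins with ADP-ribose and ubiquitin, together with Parp12, Parp14, Xaf1, Samd9l, Rtp4, Ifi44, Ifi35 and Lgals3bp. They were chosen by name as genes known to be induced by interferon. These are 10 of the 49315 gene IDs in the count table, and all 10 were among the 18492 genes that passed a filter on low counts and were tested. RNA was taken from the whole brain of male mice of the inbred strain C57BL/6J, all wild type by their labels, at 3 months of age (young, 5 mice) or 33 months of age (old, 4 mice). No mouse was treated, so age is the only labelled difference between the groups, and each mouse is a biological replicate according to the study's methods. A further old mouse, replicate 2, was not analysed here. PolyA-selected RNA was sequenced and reads were counted per gene, with totals from 14229259 to 21150439 counts per library. Values are given as normalised read counts in CPM, the count of a gene as a share of its library, put on a common large scale after TMM, a method that corrects for library size and composition. In RNA from whole tissue, more cells of a type and more RNA per cell cannot be told apart.

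Interferons are secreted proteins that signal through cell surface receptors, JAK kinases and STAT transcription factors, and they switch on a large set of antiviral genes in nearly every cell type, microglia and other glia included. Several PARP enzymes belong to this set. They transfer ADP-ribose from NAD to proteins or nucleic acids, and PARP9, PARP12 and PARP14 belong to the members of the family that do not build long poly(ADP-ribose) chains. DTX3L is a ubiquitin ligase of the Deltex family, and as a partner of PARP9 it also takes part in attaching ADP-ribose to ubiquitin itself.

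Parp14 (chr16:35832874-35871544, minus strand), Dtx3l (chr16:35926511-35939151, minus strand) and Parp9 (chr16:35938470-35972605, plus strand) lie together in a stretch of 140 kb on mouse chromosome 16 in the GRCm38 build. Dtx3l and Parp9 point away from each other and their 5′ ends overlap by 682 bases. The 250 bases upstream of the Dtx3l start site in RefSeq (GRCm38.p6, chr16:35939028-35939277, minus strand) are shown because they run into Parp9. The 33 bases in capitals belong to the first exon of protein-coding Parp9 transcripts, which are read from the opposite strand:
Dtx3l upstream: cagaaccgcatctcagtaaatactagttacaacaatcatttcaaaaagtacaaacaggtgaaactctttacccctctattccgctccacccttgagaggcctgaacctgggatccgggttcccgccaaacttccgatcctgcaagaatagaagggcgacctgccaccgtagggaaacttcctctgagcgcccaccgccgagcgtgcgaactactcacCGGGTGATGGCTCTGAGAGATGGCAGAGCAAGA

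Promoter stretches of 300 bases (250 before and 50 after the start site) were available from RefSeq for 7 of the 10 genes; Parp9, Parp14 and Rtp4 had none in that table. They were searched on both strands for exact matches to 3 motifs, so forms with a differing base were not counted. The shorter response element and the gamma-activated site were settled on while their matches were in view. The interferon-stimulated response element, GAAA and GAAA with any 2 bases between them, was in 0 of these 7 promoters and in 3.44% of the 32851 promoters of the table. A form that is 1 base shorter, GAAANNGAA, contained in the longer one, was found in 2 of the 7, those of Samd9l and Ifi44, and in 8.56% of all promoters. The gamma-activated site, TTCNNNGAA, was found in 1 of the 7, that of Ifi35, and in 8.3% of all promoters. The matches are shown in capitals in 30 bases each, at chr6:3399522-3399551 (minus strand), chr3:151749894-151749923 (minus strand) and chr11:101448409-101448438 (plus strand):
Samd9l: gtatcagaatcgaaactgGAAACTGAAgca
Ifi44: aaagtttctcTTCATTTTCtacaggcttgg
Ifi35: agaagcagaaTTCACAGAAatgaaagtgga
The upstream stretches differed in base composition. That of Parp12 was 73.6% G or C with 41 CpG dinucleotides, that of Dtx3l was 52.8% with 13, and that of Samd9l was 42.4% with 0.

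All 10 genes had a higher mean in old than in young brain, with log2 fold changes from 0.55 for Dtx3l to 1.66 for Ifi44 and a median of 0.94, beside a median near 0 (-9.21e-05) over all genes tested. Fold changes ran from 1.46 to 3.15 (old over young). The ages were compared with the quasi-likelihood test of edgeR, and its p-values were adjusted by Benjamini-Hochberg over all tested genes. Adjusted p was below 0.05 for 10 of 10, a mark that 6.09% of all tested genes reached in the higher direction. A gene was called where the absolute log2 fold change also exceeded 0.58. This held for 9 of the 10, all but Dtx3l, and for 2.13% of all tested genes in that direction. For 9 of the 10 every old mouse was above every young mouse in CPM, which was the case for 6.5% of all tested genes. The exception was Ifi35. In the deposited TPM values the ages overlapped for Parp9 and Parp12 as well. On the log2(TPM + 1) scale, where all 10 were also higher in old brain, 4 of the 10 were called with limma (Parp14, Xaf1, Rtp4 and Lgals3bp). Since the genes were picked with earlier results of these data known, these counts describe them and are not a test of the group.

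**Figure D1:**
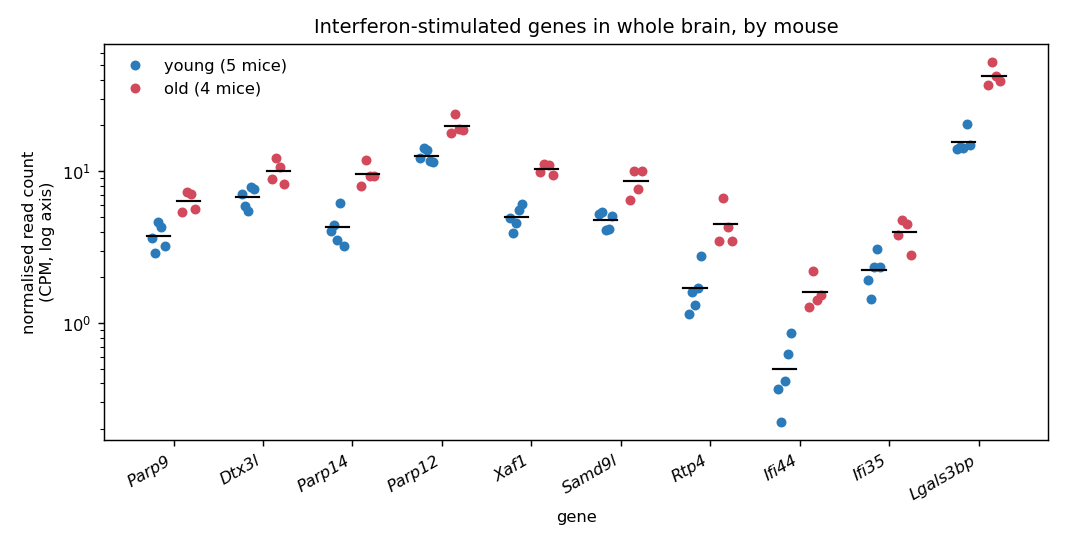
Normalised read counts (CPM, log axis) of the 10 genes in each of 5 young and 4 old brains, 1 point per mouse, with a black line at the mean of each age. Points of old and young mice are apart for 9 genes and overlap for Ifi35.

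Parp9, the PARP subunit of the complex, was at 3.61, 2.88, 4.60, 4.30 and 3.21 CPM in young replicates 1 to 5 and at 5.37, 7.26, 7.06 and 5.64 CPM in old replicates 1, 3, 4 and 5. In CPM the ages did not overlap, and the lowest old brain was above young replicate 3, the highest of the young. In TPM they overlapped, with young replicate 3 at 3.22 and old replicate 1 at 2.79. The log2 fold change of Parp9 was 0.76 ± 0.15 (SE; edgeR's quasi-likelihood test, adjusted p = 0.00355). These values rest on 52 to 129 counts per library.

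Dtx3l, the ubiquitin ligase, was at 7.06, 5.92, 5.50, 7.92 and 7.60 CPM in the young and at 8.82, 12.3, 10.7 and 8.28 CPM in the old brains. Old replicate 5 was only slightly above young replicate 4, while old replicates 3 and 4 stood clear of all young mice. The log2 fold change of 0.55 ± 0.13 (SE; edgeR's quasi-likelihood test, adjusted p = 0.0129) was the smallest of the 10 and fell just short of the 0.58 used for calls. The value nearest to that limit on its other side was 0.64 for Parp12. Dtx3l passed the limit when young replicate 4 (0.61), young replicate 5 (0.59), old replicate 1 (0.61) or old replicate 5 (0.63) was left out. It was from 0.44 to 0.56 with any of the other 5 mice left out, lowest without old replicate 3 (adjusted p = 0.0462 in edgeR's test).

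Because Parp9 and Dtx3l share 458 exon bases on opposite strands, 9.40% of the exon bases of Parp9 and 8.0% of those of Dtx3l, and the sources do not say whether these libraries were counted by strand, reads from that stretch cannot be assigned to either gene with certainty. The log2 ratio of Parp9 to Dtx3l was -0.86 ± 0.36 (SD, n = 5) in young and -0.65 ± 0.09 (SD, n = 4) in old brain. The shift of 0.21 ± 0.17 (SE) was within the spread between mice (two-sided exact permutation test, p = 0.317, adjusted p = 0.397 over 5 gene pairs). With 5 mice against 4 there are 126 splits, and the smallest p they can give is 0.00794.

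Parp14, a large PARP with macrodomains that bind ADP-ribose, was at 4.02, 4.43, 3.50, 6.18 and 3.21 CPM in young and at 8.02, 11.8, 9.25 and 9.33 CPM in old brain. Young replicate 4 was the highest of the young and still below all old brains. The log2 fold change of 1.14 ± 0.17 (SE; edgeR's quasi-likelihood test, adjusted p = 6.25e-04) was the highest of the 3 neighbours on chromosome 16. The log2 ratio of Parp14 to Parp9 was nonetheless not separated by age, at 0.18 ± 0.40 (SD, n = 5) in young and 0.59 ± 0.15 (SD, n = 4) in old brain (two-sided exact permutation test, adjusted p = 0.185).

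Parp12, an antiviral PARP with zinc fingers that bind RNA, lies apart on chromosome 6 (chr6:39086410-39118349). It was at 12.2, 14.2, 13.7, 11.6 and 11.6 CPM in young and at 17.7, 23.6, 18.9 and 18.6 CPM in old brain. In CPM all old mice were above all young mice, and old replicate 3 stood above the other old mice. In TPM the ages overlapped, with young replicate 3 at 11.7 and old replicate 4 at 10.7. The log2 fold change of Parp12 was 0.64 ± 0.09 (SE; edgeR's quasi-likelihood test, adjusted p = 3.13e-04). Without old replicate 3 it was 0.54, short of the limit for calls, with an adjusted p of 0.00100 in edgeR's test. The log2 ratio of Parp12 to Parp9 moved by -0.13 ± 0.16 (SE) with age, within the spread between mice (two-sided exact permutation test, adjusted p = 0.571), and by 0.00013 without young replicate 2.

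**Figure D2:**
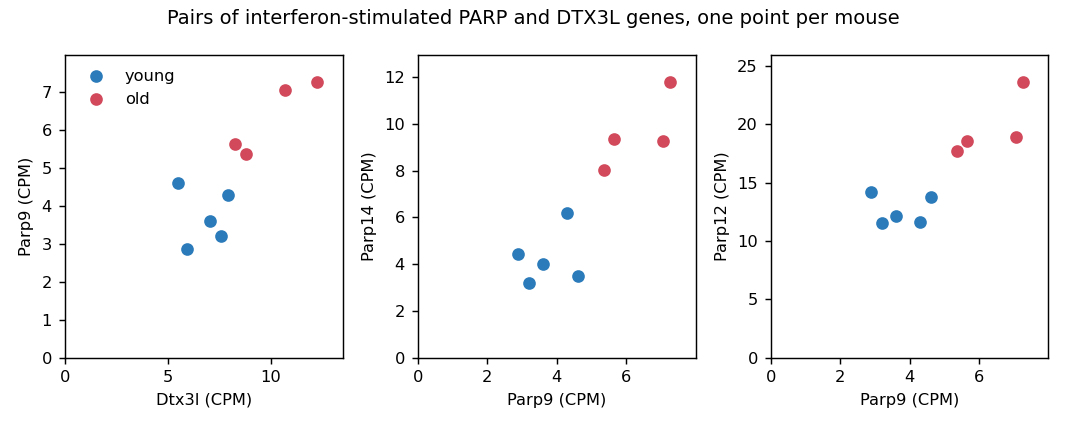
CPM of Parp9 against Dtx3l, Parp14 against Parp9 and Parp12 against Parp9 (both axes linear from 0), 1 point per mouse, with 5 young and 4 old mice. Old mice sit higher on both axes of each panel, and no age difference in the log2 ratio of any of these 3 pairs passed the exact permutation test (adjusted p from 0.185 to 0.571).

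The other tested genes within 300 kb of the Parp14, Dtx3l and Parp9 stretch served to set these 3 beside their neighbourhood; the distance was chosen after the values of the 3 genes were known. Of these 8 genes, 0 passed at 0.05 in edgeR's test (adjusted p from 0.268 to 0.930), 0 had an unadjusted p below 0.05, and 0 passed DESeq2's Wald test. Hspbap1, next to Parp14, had a log2 fold change of 0.13 ± 0.12 (SE), and Kpna1, on the far side of Parp9, one of -0.05 ± 0.04 (SE). The antisense transcript Gm15564 overlaps Parp9 without sharing exon bases and had a value of 0.52 ± 0.44 (SE), with a wide spread among young mice (131 ± 67.0 CPM, SD, n = 5).

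**Figure D3:**
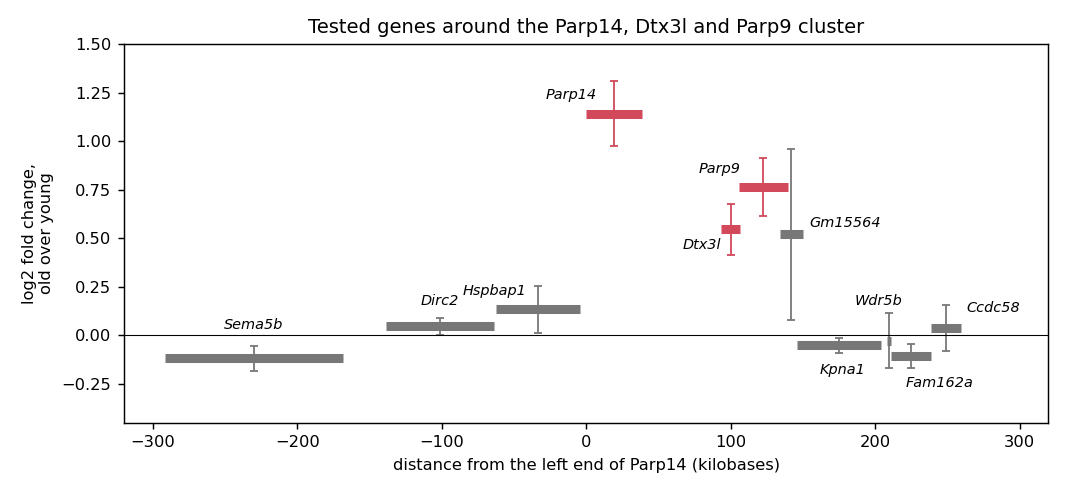
Log2 fold change (old over young; vertical bars, standard error) of the 11 tested genes around Parp14, Dtx3l and Parp9, placed by distance from the left end of Parp14 in kilobases, with horizontal bars for the extent of each gene. The 3 red genes lie at 0.55 or above, and none of the 8 grey genes passed the test, Gm15564 at 0.52 included.

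Xaf1 (chr11:72301629-72313733) encodes a factor that binds XIAP, an inhibitor of caspases, and opposes its action. It was at 4.91, 3.93, 4.54, 5.56 and 6.12 CPM in young and at 9.88, 11.1, 11.0 and 9.45 CPM in old brain. The old values were close together and far from the highest young value, and the adjusted p of 3.92e-05 (edgeR's quasi-likelihood test) was the lowest of the 10, for a log2 fold change of 1.05 ± 0.12 (SE). Xiap itself was at 112 ± 2.77 CPM (SD, n = 5) in young and 112 ± 5.16 CPM (SD, n = 4) in old brain. The log2 ratio of Xaf1 to Xiap rose by 1.05 ± 0.12 (SE), with no overlap between the ages (two-sided exact permutation test, p = 0.00794, the smallest possible; adjusted p = 0.0397). With Xiap level, this ratio repeats the age difference of Xaf1 itself and is not separate evidence about the pair. When any 1 mouse was left out the shift was from 0.98 to 1.11, and the adjusted p was then from 0.0714 to 0.143, since fewer mice leave fewer splits.

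Samd9l (chr6:3372257-3399572) encodes an antiviral protein that restrains growth and protein synthesis. It was at 5.23, 5.42, 4.12, 4.15 and 5.07 CPM in young and at 6.48, 10.01, 7.66 and 10.04 CPM in old brain. The young values spanned a narrow range and old replicate 1 was the nearest to them. The log2 fold change was 0.82 ± 0.14 (SE; edgeR's quasi-likelihood test, adjusted p = 0.00126).

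Rtp4 (chr16:23520291-23614222), a chaperone that helps receptors reach the cell surface, lies on the same chromosome as Parp9 but far from it. It was at 1.15, 1.60, 1.31, 1.69 and 2.78 CPM in young and at 3.45, 6.63, 4.27 and 3.46 CPM in old brain. Young replicate 5 and old replicate 3 stood above their groups, and the ages did not overlap. Its log2 fold change was 1.37 ± 0.25 (SE; edgeR's quasi-likelihood test, adjusted p = 0.00347). A predicted transcript on the same strand, Gm45338, shares 13.9% of its exon bases. Its relative Rtp1, at 6 to 53 counts per library, was also called (log2 fold change 1.68 ± 0.42, SE; edgeR's quasi-likelihood test, adjusted p = 0.0189). Rtp1 was at 2.82 CPM in old replicate 1, at 0.705 to 1.41 CPM in the other old and at 0.290 to 0.687 CPM in the young mice. Without old replicate 1 its log2 fold change was 1.11 (adjusted p = 0.0643 in edgeR's test), and without young replicate 1 it was 1.61 (adjusted p = 0.0544).

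Ifi44 (chr3:151730922-151749960) was the least abundant of the 10, with 4 to 31 counts per library. It was at 0.366, 0.221, 0.412, 0.628 and 0.865 CPM in young and at 1.27, 2.19, 1.42 and 1.53 CPM in old brain. All old mice were above all young mice, but the young values varied by a coefficient of variation of 50.4%, the widest of any of the 10 genes. The log2 fold change of 1.66 ± 0.31 (SE; edgeR's quasi-likelihood test, adjusted p = 0.00247) was the largest and had the largest error. Its relative Ifi44l was at 0 counts in all 9 libraries, which allows up to 0.211 CPM in the shallowest of them (3 counts, counting error only).

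Ifi35 (chr11:101448407-101458698), whose product pairs with that of Nmi, was at 1.93, 1.44, 2.34, 3.09 and 2.35 CPM in young and at 3.82, 4.80, 4.49 and 2.82 CPM in old brain. Old replicate 5 fell below young replicate 4, so the ages overlapped by this pair of mice. The log2 fold change was 0.83 ± 0.20 (SE; edgeR's quasi-likelihood test, adjusted p = 0.0145). Nmi was at 3.07 ± 0.64 CPM (SD, n = 5) in young and 3.69 ± 0.30 CPM (SD, n = 4) in old brain, and its log2 fold change of 0.26 ± 0.16 (SE) did not pass the test. The log2 ratio of Ifi35 to Nmi was higher by 0.54 ± 0.25 (SE) in old brain, which did not pass either (two-sided exact permutation test, adjusted p = 0.185). The predicted transcript Gm11626 covers 16.8% of the exon bases of Ifi35 on the opposite strand.

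Lgals3bp (chr11:118392751-118402092) encodes a secreted glycoprotein that binds galectins. It was at 14.0, 14.4, 14.2, 20.4 and 14.9 CPM in young and at 36.8, 52.3, 42.2 and 39.0 CPM in old brain. Apart from young replicate 4 the young brains were nearly equal, and all old brains were far above them. The log2 fold change was 1.44 ± 0.14 (SE; edgeR's quasi-likelihood test, adjusted p = 2.78e-04), and 1.56 without young replicate 4. Of the listed galectin genes, Lgals3 had a log2 fold change of 1.99 ± 0.44 (SE), Lgals9 of 1.03 ± 0.14 and Lgals1 of 0.40 ± 0.10, each passing edgeR's test at an adjusted p below 0.05. Lgals3 was at 3.24 CPM in young replicate 4 and at 1.24 CPM or less in the other young mice. In CPM the young mouse high in Lgals3bp was thus also the one high in Lgals3.

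Between genes, levels were compared per kilobase of exon. Lgals3bp ranked first and Parp12 second in each of the 9 mice, and Parp14 and Ifi44 took places 9 and 10 in each. In young brain Lgals3bp was at 5.47 ± 0.95 CPM per kb (SD, n = 5), Parp12 at 3.17 ± 0.31, Parp14 at 0.459 ± 0.125 and Ifi44 at 0.0813 ± 0.0410. In old brain they were at 14.96 ± 2.41 (SD, n = 4), 4.94 ± 0.66, 1.03 ± 0.17 and 0.261 ± 0.066 CPM per kb. The 6 genes between Parp12 and Parp14 overlapped with their next neighbour in the order at both ages, so their order is not settled beyond the spread between mice; Parp9 and Parp14 also overlapped as neighbours. Ranks taken from the deposited TPM values were the same for places 1, 2, 9 and 10.

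In CPM the same old mice tended to be high or low across the genes. Old replicate 3 was the highest of its age for 9 of the 10 genes, all but Samd9l, and old replicate 1 was the lowest for 7. This order depended on the scale. In TPM old replicate 3 stayed highest for Dtx3l, Parp14, Parp12, Rtp4, Ifi44 and Lgals3bp, while old replicate 4 was highest for Parp9 and Ifi35. For Xaf1 old replicate 3 was then the lowest old mouse (4.87) and old replicate 1 the highest (5.33). In the median of the 10 genes, log2 CPM exceeded the young mean by 0.86 in old replicate 1, 1.13 in replicate 3, 1.07 in replicate 4 and 0.98 in replicate 5. Among young mice, replicate 4 was the highest in CPM for 4 genes and replicate 5 for 3, with medians of 0.23 and 0.10. In TPM young replicate 3 was the highest for Parp9, Parp12, Xaf1, Ifi35 and Lgals3bp. Young replicate 4 stayed highest for Parp14 and young replicate 5 for Rtp4 and Ifi44. The nearest pair of the 10 in its pattern over the 9 mice was Parp14 and Lgals3bp, whose centred log2 CPM differed by a root mean square of 0.200, and the farthest was Parp12 and Ifi44 at 0.666.

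Among 16543 other genes with a mean log2 CPM of at least 0, those nearest in pattern over the 9 mice were named for each gene. By the same root mean square difference of centred log2 CPM, the nearest to Parp9 was H2-D1 (0.143), followed by Srgn and Helz2. For Parp14 it was Zc3hav1 (0.149), itself a PARP family gene, and for Samd9l it was Parp10 (0.151), another of that family. Parp12 had the closest match of all, Gm16702 (0.0592), followed by Ifi27 and Tap2. Lgals3bp was nearest to Ifit3b (0.121), Xaf1 to Tspo (0.132), Dtx3l to Rnase4 (0.116), Ifi35 to Sgk1 (0.175), Rtp4 to Ifitm3 (0.248) and Ifi44 to Nlrc5 (0.287). The measure contains the age difference itself, so genes with a similar fold change are near each other by construction.

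The remaining PARP family was mixed. Of 13 other family genes tested, 4 were called higher in old brain, beside 2.13% of all tested genes, and 0 lower. A further 1 fell at an adjusted p under 0.05 without reaching the fold change limit, a mark that 4.89% of all tested genes reached in the lower direction. Zc3hav1, which encodes the catalytically inactive antiviral protein ZAP (PARP13), was at 8.94 ± 1.29 CPM (SD, n = 5) in young and 18.0 ± 2.18 CPM (SD, n = 4) in old brain, a log2 fold change of 0.99 ± 0.10 (SE; edgeR's quasi-likelihood test, adjusted p = 2.28e-05). Parp10, a mono-ADP-ribosyltransferase, rose by 0.72 ± 0.18 on the log2 scale (SE), Parp3, a DNA repair PARP, by 0.64 ± 0.12, and Parp4, a component of vault particles, by 0.59 ± 0.09. Parp4 was barely past the limit and lost its call without young replicate 2, young replicate 4, old replicate 1 or old replicate 4. Parp10 lost its call without old replicate 3 or old replicate 5. Zc3hav1 and Parp3 were called whichever mouse was left out. Parp11 fell by 0.26 ± 0.06. On the log2(TPM + 1) and log2(TPM + 0.1) scales, 1 of these genes, Zc3hav1, was called with limma. The chief DNA damage sensor Parp1 had a log2 fold change of 0.01 ± 0.04 (SE), Parp2 of 0.05 ± 0.08, and the tankyrases Tnks and Tnks2 of 0.04 ± 0.03 and 0.00 ± 0.04, none of which passed.

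Of the genes that remove ADP-ribose and those that handle NAD, 3 passed at an adjusted p below 0.05, 2 higher and 1 lower, out of 16 tested, beside 6.09% higher and 4.89% lower of all tested genes. Of 9 genes of ADP-ribose removal, Macrod1, a macrodomain hydrolase, rose (log2 fold change 0.34 ± 0.08, SE; edgeR's quasi-likelihood test, adjusted p = 0.00754) and the other 8 did not pass, Parg among them at -0.02 ± 0.05. Of 4 other Deltex genes 0 passed in edgeR's or DESeq2's test (0 at an unadjusted p below 0.05), with values from -0.09 for Dtx1 to 0.12 for Dtx2. Of 7 tested genes of NAD supply and use, Nampt, the rate-limiting enzyme of NAD salvage, rose by 0.18 ± 0.04 on the log2 scale (SE), and Sarm1, an NAD-consuming enzyme of axon degeneration, fell by 0.16 ± 0.05. Over all 33 tested genes of ADP-ribose and ubiquitin transfer, removal and NAD supply other than the 10, the median log2 fold change was 0.0024. Of the 33, 4 were called, all higher in old brain, beside 2.13% of all tested genes.

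**Figure D4:**
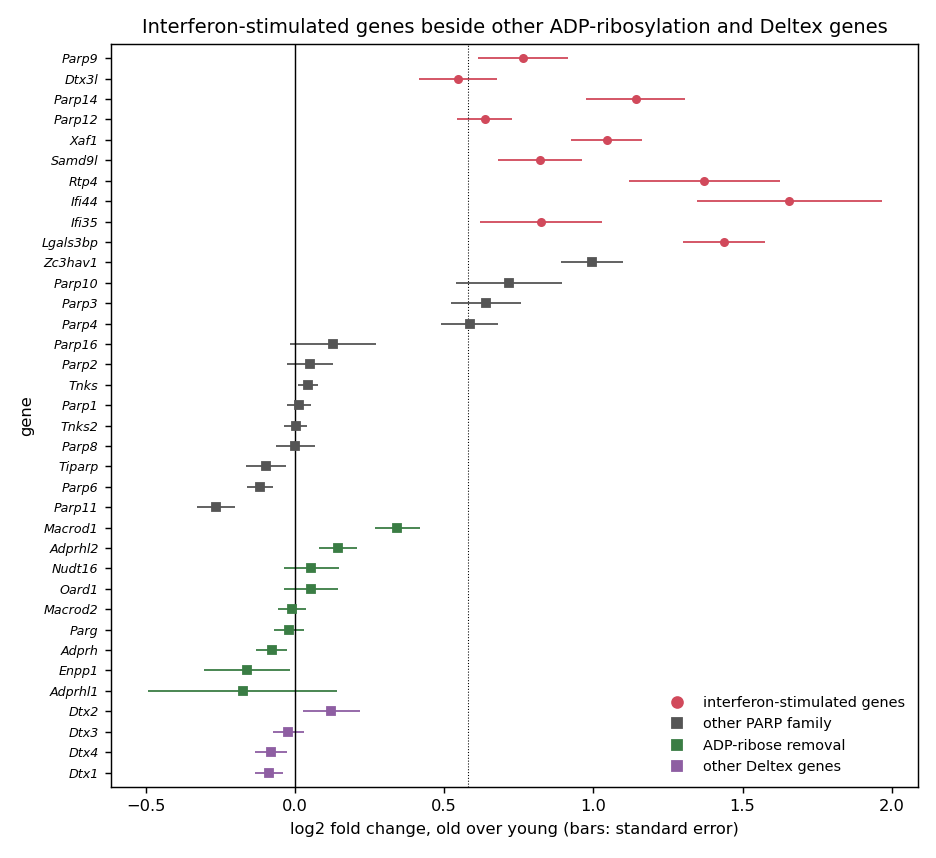
Log2 fold change (old over young, horizontal axis; bars, standard error) of the 10 interferon-stimulated genes in red, 13 other PARP family genes in grey, 9 genes of ADP-ribose removal in green and 4 other Deltex genes in purple, with a dotted line at 0.58. Beside the red points, the 4 grey ones past the dotted line are Zc3hav1, Parp10, Parp3 and Parp4.

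Upstream of these genes, interferon ligands were barely counted. Of 11 ligand genes, 8 had 0 counts in every library, among them Ifnb1, and the other 3 (Ifng, Ifnk and Ifna1) reached at most 2 counts in a library. A count of 0 allows up to 0.142 to 0.211 CPM, depending on the library (counting error only), so a difference in ligand RNA was not detectable at this depth. Of 6 receptor genes, Ifngr1 rose by 0.35 ± 0.09 on the log2 scale (SE) and Ifngr2 fell by 0.22 ± 0.06 (edgeR's quasi-likelihood test, adjusted p = 0.0209 and 0.0198). Ifnar1 and Ifnar2, the receptor of type I interferon, were at -0.03 ± 0.05 and 0.04 ± 0.07 and did not pass. Of the factors that carry the signal to DNA, Irf9 rose by 0.36 ± 0.08 on the log2 scale (SE), while Stat2 was at 0.18 ± 0.06 and did not pass (adjusted p = 0.00981 and 0.0710 in edgeR's test). Irf7, an interferon-induced amplifier of the response, rose by 2.06 ± 0.34 (adjusted p = 0.00603), and like most of the 10 genes it was highest in old replicate 3, at 14.0 CPM beside 4.52 to 7.71 CPM in the other old mice.

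Other than the 10, 57 genes of interferon receptors, signalling and response were tested, while the 11 ligand genes did not pass the filter on low counts. Of the 57, 37 passed edgeR's test at an adjusted p below 0.05 in the higher and 1 in the lower direction. Over all tested genes these shares were 6.09% and 4.89%. Of the 57, 31 were called higher, beside 2.13% of all tested genes, and 0 lower. Their median log2 fold change was 0.80. The highest values were those of Ifi27l2a (2.07), Irf7 (2.06) and Zbp1 (1.90), and the lowest those of Ifngr2 (-0.22), Ifnlr1 (-0.18) and Ifnar1 (-0.03). The 57 include 6 receptor genes (median 0.0045) and 12 signalling genes (median 0.31). The 44 tested genes of the response list alone, some of them shared with the signalling list, had a median of 0.95. The median of the 10 genes was 0.94 on the same scale.

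Markers of several cell types moved with age beside these genes. For the counts that follow, 6.09% of all tested genes passed edgeR's test at an adjusted p below 0.05 in the higher direction. Of 8 markers of activated microglia, 3 passed in the higher direction (Gpnmb, Cd68 and Axl), and their summed level was 91.1 to 159 CPM in young and 135 to 181 CPM in old brain. Young replicate 4 held the young maximum of 159 CPM while the other young mice reached at most 106 CPM. In that mouse Itgax was at 9.71 and Clec7a at 7.29 CPM, both at or below 0.31 CPM in the other young mice; these genes were picked out after their values were seen. Of 8 homeostatic microglia markers 1 passed, Tmem119, with sums of 217 to 297 CPM in young and 287 to 345 CPM in old brain. The young maximum was again that of young replicate 4, and the other young mice reached at most 244 CPM. Of 7 endothelial markers 5 passed in the higher direction (sums of 246 to 259.8 and 299 to 411 CPM), of 5 blood markers 3 (86.1 to 116 and 128 to 409 CPM) and of 5 markers of border macrophages 2 (6.86 to 8.21 and 9.59 to 14.9 CPM).

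Old replicate 4 stood apart in neutrophil and monocyte markers, whose sum was 51.5 CPM beside 2.40 to 3.40 CPM in the other old and 0.664 to 1.36 CPM in the young brains, and it also held the highest blood sum. Without old replicate 4, 9 of the 10 genes were called, and without young replicate 4 all 10. Neuron sums were 5903 to 6454 CPM in young and 5789 to 6399 CPM in old brain, and those of astrocytes 4319 to 5003 and 4779 to 4997 CPM, so the tissue carried the markers of whole brain. The astrocyte sum of 5003 CPM was that of young replicate 4. The other young mice reached at most 4409 CPM, below all old mice, though of 8 astrocyte markers 0 passed edgeR's test. No listed marker was at 0 in all libraries. The part of these cell types in the higher levels of the 10 genes was not tested.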

How the data were processed

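The authors trimmed the reads with Trimmomatic, aligned them to GRCm38 (mm10) with STAR and counted reads per gene with featureCounts. They deposited counts (whole reads per gene, not normalized), normalized counts of 17994 genes (a signal: the authors' counts over 1 size factor for each library), and TPM values, for which the authors' gene lengths are not given in the sources used here. The filter of the 17994 genes was not used here. Each table held a further column (1 in each) that matched no sample used here and was left out.

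From the deposited counts, filterByExpr of edgeR, with a minimum count of 10 and a minimum total of 15, kept 18492 of 49315 gene IDs. Libraries were scaled with TMM and ages compared by edgeR's quasi-likelihood test (robust glmQLFit), p-values being adjusted by Benjamini-Hochberg. The robust option was adopted after results with and without it were seen, to match earlier processing of these data. A gene was called where the adjusted p was below 0.05 and the log2 fold change beyond 0.58 in either direction. Log2 CPM used a prior count of 2. SEs came from the fold change and the test statistic, with a median of 0.0852 over all genes, and the common biological coefficient of variation was 6.69%. Gene pairs, 5 in all, were compared by exact permutation of log2 ratios, adjusted over these 5. Exon lengths, positions and symbols (48970 IDs; 345 without) came from GENCODE M21, and promoters from RefSeq (GRCm38.p6). All 10 genes were named. Others were named out of fixed lists (any tested gene of the PARP, ADP-ribose, Deltex, NAD and partner lists, those called in every case; the 3 highest and 3 lowest of the interferon lists, Stat2, Irf9 and Irf7) and out of the 3 nearest in pattern, the nearest in every case. An item under this rule is not reported here. Members and lists were chosen with earlier results of these data known. Lists of pericyte and smooth muscle, oligodendrocyte, ependyma and choroid, T cell and B cell markers were also summed. Libraries of 1 age differed by more than sampling noise (lowest chi-square over its degrees of freedom, 4.05) and were kept as separate replicates. The fit was tested on simulated data. Alternatives were DESeq2 size factors, DESeq2's Wald test, no filter on low counts, a replicate block, limma on TPM and on normalized counts, no fold change limit, another prior count, each mouse left out and, added after seeing the data, the non-robust fit and limma on the other lists. The tools were edgeR 4.0.16, DESeq2 1.42.0 and limma 3.58.1, run in R 4.3.3.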

Additional observations from a re-analysis of the deposited data

Results flagged for a closer look

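Of 30 combinations of a value and an age that were searched for a mouse far from the others, 2 were found, and chance alone gives about 1.5. The log2 CPM of Lgals3bp in young replicate 4 was 4.36, beside 3.81 to 3.91 in the other 4 young mice. In the deposited TPM values young replicate 3 was higher, at 16.9 beside 15.6 in young replicate 4. The log2 ratio of Parp12 to Parp9 in old replicate 4 was 1.41, beside 1.69 to 1.70 in the other 3 old mice. The cause of either was not tested.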

How the results depend on the processing

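Of 170 values of single genes under alternatives (17 for each of the 10), 0 changed direction, 157 kept their side of the limits for a call, 9 lost the call and 4 gained it, all 4 those of Dtx3l with a mouse left out. The number of the 10 genes called was 9 with DESeq2 size factors, DESeq2's Wald test, no filter on low counts, the non-robust fit, the replicate block and limma on normalized counts, 10 without the fold change limit, 8 to 10 with a mouse left out, 6 on log2(TPM + 0.1) and 4 on log2(TPM + 1). On that last scale the median of all genes shifted by -0.142, and the pseudocount lowers the fold changes of low genes. On it Parp9 (log2 fold change 0.42), Dtx3l (0.30), Parp12 (0.42) and Samd9l (0.48) had adjusted p of 0.0849 or more in limma. With the smaller pseudocount of log2(TPM + 0.1) the same genes were at 0.58, 0.38, 0.47 and 0.63. Their adjusted p in limma was then 0.102 or more, so they did not pass on either scale. Of other ADP-ribosylation genes, 3 or 4 were called with a mouse left out, 2, Parp3 and Zc3hav1, under the replicate block, and 1, Zc3hav1, with limma on log2(TPM + 1) and on log2(TPM + 0.1), scales added for this list after seeing the data. The non-robust fit called 32 other interferon genes beside 31. The shift of the Xaf1 to Xiap ratio was from 0.98 to 1.11 with a mouse left out and 0.98 (adjusted p = 0.417, exact permutation of signs) with the replicate number as a block, where 4 pairs could not pass. Under the block Dtx3l had an adjusted p of 0.0569 in edgeR's test. The numbers were not treated as pairing the mice in the main test. Deviations of same-numbered mice correlated at 0.17, -0.12, 0.09 and -0.02, and those of differently numbered mice at -0.22 to 0.16. So few pairs cannot exclude a pairing. Depth limits Ifi44, at 4 to 31 counts.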
